A study of Mus musculus with 60 samples.

Results

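The Zscan4 family was followed through 60 RNA-seq libraries of mouse embryonic stem cells (mESCs). Its 6 members, Zscan4a to Zscan4f, were taken by gene symbol, mapped to the Ensembl gene identifiers that name the rows, out of 55487 genes and 1146 repeat subfamilies counted. All 20 groups of 3 libraries were used. Every library came from the E14JU line carrying POLE4-dTAG, in which the POLE4 subunit of DNA polymerase epsilon bears a tag that the compound dTAG sends to degradation. Cells named Ctrl received DMSO, and cells named dPOLE4 received dTAG at 1 uM. The WT background was the POLE4-dTAG line, and the MCM2-2A background was the same genotype with MCM2-2A, a mutation in the histone-binding part of the MCM2 helicase subunit, labelled as clone 2. Each background was thus 1 line, so that the mutation and the clone cannot be told apart. Cells were collected after 24 h of treatment in serum and LIF (T0), or went on to retinoic acid (RA) without LIF for 12, 24 or 60 h. A separate experiment with its own count table held the same 4 kinds of cells after 96 h of DMSO or dTAG with no RA. POLE4 is removed as a protein, so the counts of its RNA do not check the depletion.

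Zscan4 proteins carry a SCAN domain, which mediates pairing between proteins of this class, and C-terminal zinc fingers. The family is switched on in the mouse embryo at the 2-cell stage. In mESC cultures it marks rare cells that enter a 2-cell-like state for a short time and then leave it. The same cells transcribe MERVL, an endogenous retrovirus, from its MT2_Mm long terminal repeats, and the transcription factor DUX, encoded by the Duxf3 locus, switches on this program. Zscan4 itself is known for its part in telomere lengthening by recombination and in genome stability of mESCs. In bulk RNA, fewer cells in this state and less Zscan4 RNA per such cell cannot be told apart.

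The 6 genes lie in 1 cluster of 608 kb on chromosome 7 (mm10, GENCODE M21 annotation). From the proximal end, Zscan4a (ENSMUSG00000110097) lies at chr7:10794242-10799057 on the minus strand and is annotated as an unprocessed pseudogene. Zscan4b (ENSMUSG00000095339) lies at chr7:10900740-10905050 on the minus strand, and Zscan4c (ENSMUSG00000054272) at chr7:11005745-11010547 on the plus strand. Zscan4d (ENSMUSG00000090714) lies at chr7:11161374-11166159 on the minus strand, Zscan4e (ENSMUSG00000095936) at chr7:11306378-11310682 on the minus strand and Zscan4f (ENSMUSG00000070828) at chr7:11397915-11402318 on the plus strand. Zscan4b to Zscan4f are annotated as protein coding, with reading frames of 505 or 506 codons, and each of the 6 has a transcript of 4 exons. Counts were summed over exons of a gene, so no exon, intron or UTR was measured on its own.

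The promoters are shown because the proximal sequences of the 4 members held are nearly the same. The members moved together in most comparisons, and the part of the promoters in this was not tested. RefSeq windows (GRCm38.p6) from 250 bases before to 50 after the start were held for 4 members, Zscan4b, Zscan4c, Zscan4d and Zscan4f. The 190 bases printed, 5′ to 3′, are chr7:10905042-10905231 (minus strand) for Zscan4b, chr7:11005541-11005730 (plus strand) for Zscan4c, chr7:11166174-11166363 (minus strand) for Zscan4d and chr7:11397734-11397923 (plus strand) for Zscan4f. Capitals mark the letters TATAAA and, on either strand, TGATTNAAT, which are the first 9 letters of the motif bound by DUX.
Zscan4b: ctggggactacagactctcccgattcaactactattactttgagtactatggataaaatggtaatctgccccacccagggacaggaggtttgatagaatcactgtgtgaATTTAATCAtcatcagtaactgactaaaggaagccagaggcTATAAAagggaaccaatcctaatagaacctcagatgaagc
Zscan4c: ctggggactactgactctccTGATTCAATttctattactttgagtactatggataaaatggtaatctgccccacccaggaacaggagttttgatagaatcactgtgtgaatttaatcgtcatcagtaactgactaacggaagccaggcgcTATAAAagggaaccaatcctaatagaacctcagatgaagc
Zscan4d: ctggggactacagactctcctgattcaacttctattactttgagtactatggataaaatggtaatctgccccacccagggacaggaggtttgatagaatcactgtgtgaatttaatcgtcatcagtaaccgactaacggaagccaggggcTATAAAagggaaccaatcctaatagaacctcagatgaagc
Zscan4f: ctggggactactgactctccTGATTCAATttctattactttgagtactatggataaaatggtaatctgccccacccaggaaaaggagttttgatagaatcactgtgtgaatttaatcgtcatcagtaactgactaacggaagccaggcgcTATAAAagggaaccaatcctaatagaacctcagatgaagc
All 4 windows held TATAAA, as did 13.6% of the 32851 mouse promoters of the same length. TGATTNAAT was found in 3 of the 4, on the plus strand in Zscan4c and Zscan4f and as its reverse complement in Zscan4b, against 0.718% of all promoters. The letters were searched on both strands, did not overlap each other, and a match is a description of the sequence only. Pairs of these windows were 95.3% to 99.3% identical over their aligned bases.

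The transcripts are also alike. Aligned pairs of the 6 longest transcripts were 96.6% (Zscan4b and Zscan4d) to 99.7% (Zscan4b and Zscan4e) identical. Of all windows of 100 bases, the length of a read, 89.5% in Zscan4f, 82.8% in Zscan4e, 76.1% in Zscan4b and 72.8% in Zscan4c occurred without a mismatch in another member or in 1 of the 3 annotated copies Zscan4-ps1 to Zscan4-ps3. The shares were 39.1% in Zscan4a and 29.6% in Zscan4d, the members with the lowest shares. Reads that fit several copies were kept in mapping, so the count of 1 member can include reads of another, and differences between members are less certain than the level of the family. For this reason the sum over the 6 members is given beside each of them, as a description with no test. This sum leaves out Zscan4-ps1 to Zscan4-ps3, so reads shared with those copies still affect it.

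Libraries held 10461077 to 46609151 counts in the first table (48 libraries) and 7126100 to 23598266 in the second (12 libraries). Levels are given as CPM, counts scaled to the size of the library, after TMM scaling within a table, so levels of the 96 h experiment are not compared with the others. A gene was called differentially expressed (DE) when the adjusted p of edgeR's quasi-likelihood test, over all features tested, was under 0.01 and its log2 fold change was beyond 0.58 in either direction. All 6 members passed the filter on low counts in each of the 39 comparisons made. Where groups are said not to overlap, this describes their libraries only. The share of all features with such groups was not computed. A member had between 6 and 1998 counts in a library, and the family had 99 to 8574. Markers of pluripotency, which define mESCs, were all present at T0, with a summed level of 3163 to 3265 CPM over 6 genes in Ctrl. The methods call the 3 libraries of a group biological replicates.

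Zscan4 RNA was low before RA and highest at RA 60 h in every kind of cell. The summed family had 39.0, 11.7 and 18.3 CPM in the Ctrl libraries at T0, 31.5, 6.10 and 17.2 at RA 12 h, 70.5, 25.7 and 41.6 at RA 24 h and 422, 354 and 315 at RA 60 h. In dPOLE4 cells the values were 39.4, 12.5 and 21.0 at T0, 36.2, 10.7 and 20.7 at RA 12 h, 68.7, 21.9 and 40.1 at RA 24 h and 329.5, 273 and 299.6 at RA 60 h. The 12 libraries of RA 60 h lay above all 36 earlier ones. Ctrl MCM2-2A cells had 65.0, 33.5 and 63.7 CPM at T0, 52.5, 32.1 and 43.0 at RA 12 h, 88.3, 65.2 and 109 at RA 24 h and 274, 213 and 209 at RA 60 h. dPOLE4 MCM2-2A cells had 56.7, 32.3 and 77.8, 54.4, 39.4 and 72.5, 105, 78.0 and 149.8 and 316, 303 and 393 CPM at the same times. Ordered by their means, the 16 groups ran from Ctrl at RA 12 h (18.3 ± 12.7, SD, n = 3) to Ctrl at RA 60 h (363 ± 54.0, SD, n = 3). Every group in this order overlapped the next one, except that dPOLE4 MCM2-2A at RA 24 h (111 ± 36.3) lay wholly below Ctrl MCM2-2A at RA 60 h (232 ± 36.3).

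In the 96 h experiment the summed family had 71.7, 45.4 and 55.3 CPM in Ctrl, 83.2, 51.9 and 65.7 in Ctrl MCM2-2A, 126, 75.7 and 66.0 in dPOLE4 and 192, 138 and 152 in dPOLE4 MCM2-2A. The first 3 groups overlapped their neighbours in that order. All 3 dPOLE4 MCM2-2A libraries lay above the other 9.

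**Figure D1:**
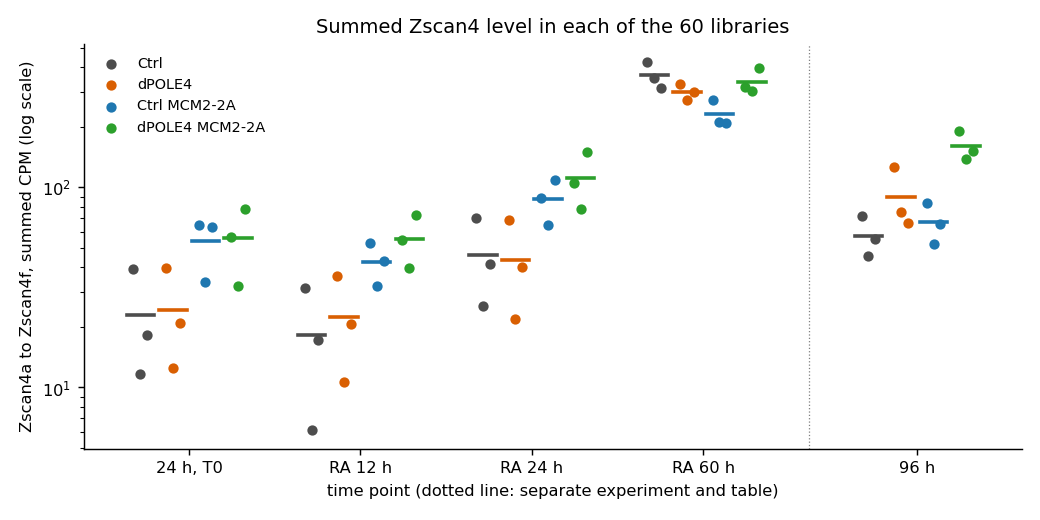
Summed CPM of Zscan4a to Zscan4f (y axis, log scale) at each time point (x axis), with 1 point per library, 3 per group, and a bar at the group mean; colours give the kind of cell, and the dotted line sets apart the 96 h experiment. The 12 libraries at RA 60 h sit between 209 and 422 CPM, above the 36 earlier libraries.

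The libraries of a group differed widely before RA 60 h. In Ctrl at T0 the highest summed level was 3.34 times the lowest, at RA 12 h 5.16 times and at RA 60 h 1.34 times. Same-numbered libraries kept part of their rank order before RA 60 h. Replicate 1 was the highest and replicate 2 the lowest in all 6 WT groups of T0, RA 12 h and RA 24 h. Replicate 2 was also the lowest in all 6 MCM2-2A groups of these times, where replicate 3 was the highest in 4 and replicate 1 in 2. Over the 48 libraries of the first table Pearson's r of log2 CPM between 2 members was 0.856 to 0.940, and 0.692 to 0.850 for deviations from the group means, where the members share reads and library depth. Over the 12 libraries of the 96 h table the range was wider, 0.369 to 0.982, and -0.163 to 0.972 for deviations from the group means.

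All 6 members rose between T0 and RA 60 h in all 4 kinds of cells. In Ctrl cells the summed family went from 23.0 ± 14.3 to 363 ± 54.0 CPM (SD, n = 3), 15.8 times as high. All 6 members were DE and higher, where 26.9% of the features tested were called higher. Zscan4d had 7.48, 2.39 and 2.93 CPM at T0 and 99.5, 85.2 and 73.5 CPM at RA 60 h, a log2 fold change of 4.33 (SE 0.23, adjusted p = 2.68e-10). The lowest library at RA 60 h was above the highest at T0 by far more than the spread within either group. Zscan4b, the member with the lowest level per length at T0, had 3.12, 0.684 and 1.01 CPM at T0 and 38.1, 30.2 and 31.4 CPM at RA 60 h, a log2 fold change of 4.37 (SE 0.27, adjusted p = 1.22e-09). Zscan4c went from 7.65, 2.62 and 4.91 CPM to 93.4, 74.6 and 70.4 CPM, a log2 fold change of 3.96 (SE 0.20, adjusted p = 1.61e-10). The groups did not overlap for any member. Zscan4e and Zscan4f had log2 fold changes of 4.08 (SE 0.21) and 4.13 (SE 0.24). Zscan4a rose least, from 7.54, 1.71 and 3.04 CPM to 30.4, 28.2 and 24.1 CPM, a log2 fold change of 2.74 (SE 0.29, adjusted p = 5.93e-07). The median member had a log2 fold change of 4.10, and the median of all features was -0.0134.

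The same rise was measured in the other 3 kinds of cells, again with all 6 members DE and higher. Their groups did not overlap either, which describes the libraries, with no share over all features computed. In dPOLE4 cells the members were 5.01-fold (Zscan4a) to 18.4-fold (Zscan4d) higher, where 25.6% of features were called higher. In Ctrl MCM2-2A cells the log2 fold changes ran from 1.37 to 2.46 (26.3% of features called higher), and in dPOLE4 MCM2-2A cells from 1.64 to 2.94 (23%). Zscan4a had the smallest fold change in each of the 4. The 4 comparisons share no library. The largest adjusted p among the 24 tests was 1.83e-05. The 6 calls held in each of the 4 under DESeq2, with the replicate block and without any 1 library. RA 60 h differs from T0 in RA, LIF and time together, which cannot be told apart. In dPOLE4 cells the time since dTAG was added also grew with the time in RA, and these cannot be told apart either. Pluripotency markers fell over the same interval in Ctrl, from a summed range of 3163 to 3265 CPM to a range of 257 to 337 CPM, with 6 of 6 DE and lower. Endoderm markers rose from a range of 15.3 to 32.0 CPM to a range of 354 to 423, with 7 of 7 DE and higher. Fibroblast markers went from a range of 46.4 to 59.5 CPM to a range of 365 to 513, with 4 of 5 tested higher and 1 lower. Of 6 trophoblast markers tested 3 were higher and 3 lower, and of 4 neural markers 2 were higher and 1 lower. The part of these cell types in the Zscan4 rise was not tested.

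**Figure D2:**
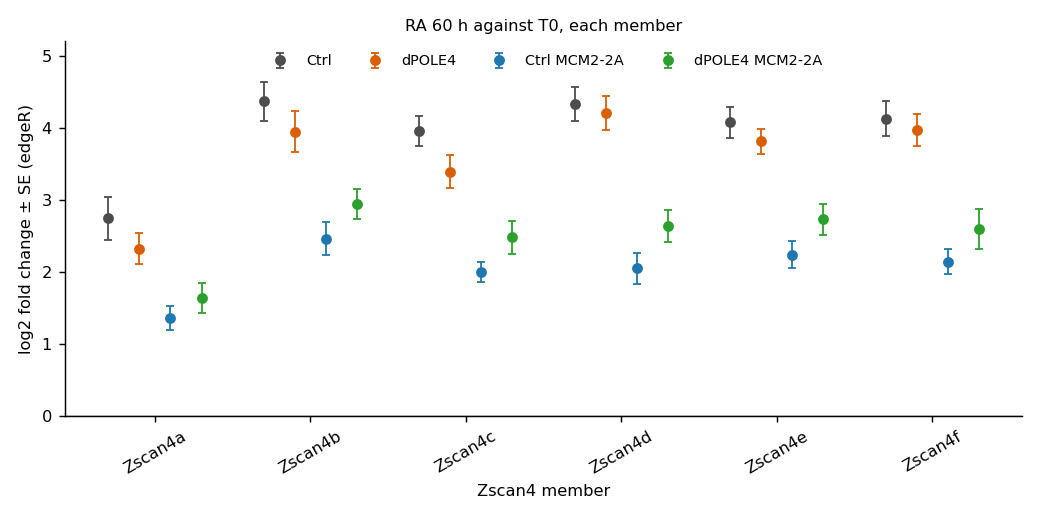
Log2 fold change at RA 60 h against T0 (y axis, edgeR, bars are SE) for each Zscan4 member (x axis) in the 4 kinds of cells (colours), 3 libraries per group; filled points passed the DE thresholds. All 24 points are filled, Zscan4a is the lowest in each kind of cell, and for each member both MCM2-2A points lie below both WT points.

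The members did not keep their proportions as the family rose. Levels were scaled per kilobase of annotated exon to compare genes, and each member was expressed as a share of the 6. Zscan4a held 13.3% to 18.9% of the family over the 12 libraries at T0, 9.27% to 15.6% at RA 24 h and 6.49% to 9.38% at RA 60 h. The T0 and RA 60 h ranges did not overlap. Its level nevertheless rose, in Ctrl from 1.80 ± 1.34 to 12.1 ± 1.40 CPM per kb (SD, n = 3). Zscan4b held 4.98% to 10.7% at T0 and 9.75% to 13.0% at RA 60 h. Zscan4e had the largest share of the 6 at RA 60 h, 22.9% to 27.3%, and Zscan4c held 17.3% to 21.3%. Zscan4d differed between the backgrounds at RA 60 h, with 21.1% to 23.3% in the 6 WT libraries and 15.8% to 17.4% in the 6 MCM2-2A libraries, while at T0 it held 13.1% to 18.7% and 14.1% to 18.5%. Zscan4a went the other way at RA 60 h, with 6.49% to 7.19% in WT and 8.58% to 9.38% in MCM2-2A libraries. In the 96 h experiment Zscan4a held 15.0% to 19.7% over 12 libraries. These shares are descriptions with no test, and Zscan4a and Zscan4d are the members with the fewest shared 100-base windows.

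**Figure D3:**
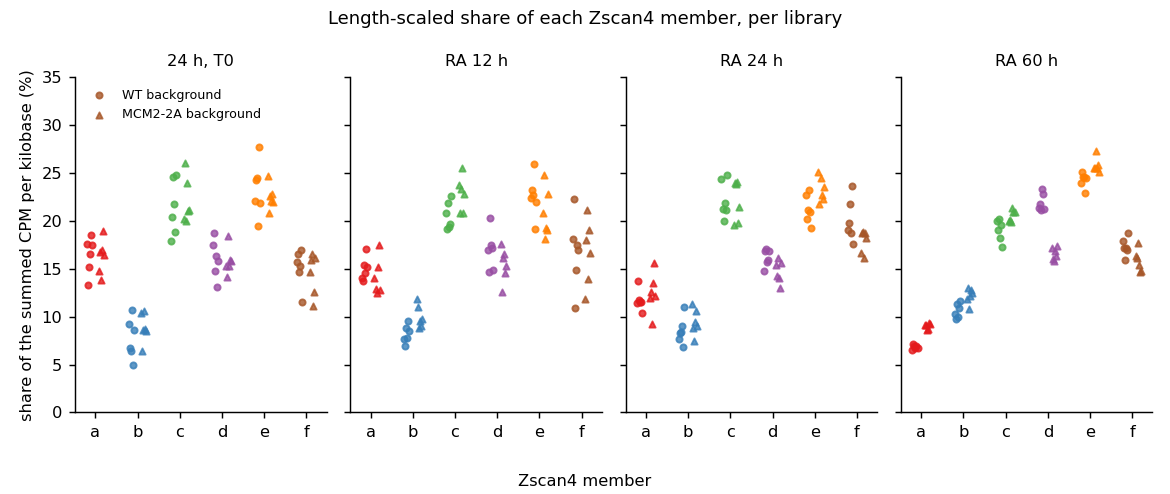
Share of each member in the summed CPM per kilobase of the 6 genes (y axis, percent), with 1 point per library at T0 and after 12, 24 and 60 h of RA (panels); circles are WT and triangles MCM2-2A libraries, 6 of each per panel. Zscan4a falls to 6.49% to 9.38% at RA 60 h, and the Zscan4d points of both backgrounds separate there.

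RA 12 h and RA 24 h were compared with the same T0 libraries as RA 60 h. At RA 12 h no member was DE. The members' log2 fold changes ran from -0.39 to -0.13 in Ctrl, -0.29 to 0.0388 in dPOLE4, -0.49 to -0.0940 in Ctrl MCM2-2A and -0.26 to 0.17 in dPOLE4 MCM2-2A cells. In edgeR 1 of the 24 tests, in Ctrl MCM2-2A cells, had an unadjusted p under 0.05, and DESeq2 called none. Of all features, 11.3%, 11.7%, 8.65% and 7.79% were called in either direction in these comparisons.

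At RA 24 h each member's log2 fold change against T0 was above 0 in each kind of cell, and 5 of the 24 tests passed. In Ctrl cells 1 of 6 was DE, Zscan4f, with 5.78, 1.82 and 2.53 CPM at T0 and 12.7, 4.80 and 8.59 CPM at RA 24 h, a log2 fold change of 1.38 (SE 0.36, adjusted p = 0.00483). The groups overlapped, since the highest T0 library was above the lowest RA 24 h library. All 6 had log2 fold changes of 0.59 to 1.38, where 13.5% of features were called higher. In dPOLE4 cells none was called (0.28 to 1.32), while 19.2% of features were called in either direction. An unadjusted p under 0.05 in edgeR was found for 4 of 6, and for 9592 of 18889 features. DESeq2 called no member there. In Ctrl MCM2-2A cells Zscan4c and Zscan4f were DE and higher, Zscan4c with 14.5, 9.49 and 14.0 CPM at T0 and 19.2, 17.2 and 28.8 CPM at RA 24 h, a log2 fold change of 0.74 (SE 0.18, adjusted p = 0.00393), where 14.4% of features were called higher. In dPOLE4 MCM2-2A cells Zscan4b and Zscan4f were DE, Zscan4f with a log2 fold change of 1.26 (SE 0.32, adjusted p = 0.00774), where 10.9% of features were called higher. DESeq2 called 0 members in Ctrl and 1 in each MCM2-2A comparison.

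The RA 24 h counts rested on single libraries, on the count filter and on the use of a replicate block. With the replicate number as a block 6 members were called in Ctrl, 5 in dPOLE4, 5 in Ctrl MCM2-2A and 6 in dPOLE4 MCM2-2A cells. Over all genes these numbers did not pair the libraries of RA 24 h and T0. With no filter on low counts 6 members were called in Ctrl, 5 in dPOLE4, 4 in Ctrl MCM2-2A and 6 in dPOLE4 MCM2-2A cells. The number of all features called with the block or without the filter is not given here, so these counts have no background share beside them. In Ctrl cells the number of members called was 0 without Ctrl T0 replicate 2, Ctrl T0 replicate 3, Ctrl T24 replicate 1 or Ctrl T24 replicate 3, 4 without Ctrl T24 replicate 2 and 6 without Ctrl T0 replicate 1. In dPOLE4 cells it was 1 without dPOLE4 T0 replicate 1 and 3 without dPOLE4 T24 replicate 2. In Ctrl MCM2-2A cells it was 0 without Ctrl MCM2-2A T0 replicate 2 or Ctrl MCM2-2A T24 replicate 3 and 1 without Ctrl MCM2-2A T24 replicate 1. In dPOLE4 MCM2-2A cells it was 0 without dPOLE4 MCM2-2A T0 replicate 1, dPOLE4 MCM2-2A T0 replicate 2, dPOLE4 MCM2-2A T24 replicate 1 or dPOLE4 MCM2-2A T24 replicate 3, 5 without dPOLE4 MCM2-2A T24 replicate 2 and 6 without dPOLE4 MCM2-2A T0 replicate 3.

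The rise at RA 60 h was smaller in the MCM2-2A background, in Ctrl cells past the test for 5 of 6 members. The question is whether the response to RA differs between the backgrounds, and it was tested as an interaction of time and background. In Ctrl cells the difference of the log2 fold changes (MCM2-2A minus WT) was -2.31 for Zscan4d (SE 0.39, adjusted p = 0.000333), -2.01 for Zscan4f (SE 0.36, adjusted p = 0.000527) and -1.99 for Zscan4c (SE 0.29, adjusted p = 8.74e-05). It was -1.94 for Zscan4b (SE 0.45) and -1.87 for Zscan4e (SE 0.35), which were also called. Zscan4a, at -1.41 (SE 0.39, adjusted p = 0.0141), was not. Of all features, 4.4% were called lower in this test. DESeq2 called 3 of the 5, Zscan4c, Zscan4d and Zscan4f, with adjusted p of 0.0674 for Zscan4b and 0.0143 for Zscan4e. In the same test 4 of 6 pluripotency, 3 of 6 trophoblast and 2 of 5 fibroblast markers were called higher, 2 of 7 endoderm markers lower, and of 4 neural markers 1 was higher and 1 lower, and their part was not tested. Both a higher level at T0 and a lower level at RA 60 h entered the difference: the summed family was 2.35 times the WT level at T0 and 0.639 times at RA 60 h in Ctrl cells. In dPOLE4 cells the difference was -1.58 to -0.69 and no member was called, while 8.22% of features were called in either direction. An unadjusted p under 0.05 in edgeR was found for 5 of 6, and for 5902 of 19702 features. DESeq2 called 0 members. There the number called was 1 without dPOLE4 MCM2-2A T60 replicate 3, 2 without dPOLE4 MCM2-2A T0 replicate 2 and 4 without dPOLE4 T0 replicate 1.

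MCM2-2A cells had more Zscan4 RNA than WT cells at T0 and RA 24 h, for some members past the test. In Ctrl cells at T0, 3 of 6 members were DE and higher, Zscan4c, Zscan4e and Zscan4f, where 9.83% of features were called higher. Zscan4e had 14.0, 5.97 and 12.5 CPM in Ctrl MCM2-2A and 7.43, 2.45 and 3.84 CPM in Ctrl libraries, a log2 fold change of 1.27 (SE 0.34, adjusted p = 0.00916). WT replicate 1 lay above the lowest MCM2-2A library, so the groups overlapped. All 6 members had log2 fold changes of 1.13 to 1.43. At RA 12 h the range was 0.98 to 1.54 with none called, where 14.5% of features were called in either direction. An unadjusted p under 0.05 in edgeR was found for 6 of 6, and for 8073 of 17799 features. DESeq2 called 1 member. At RA 24 h Zscan4a, Zscan4b, Zscan4d and Zscan4e were DE and higher in MCM2-2A, Zscan4b with 8.79, 5.04 and 7.13 CPM against 4.69, 1.86 and 3.06 CPM, a log2 fold change of 1.11 (SE 0.26, adjusted p = 0.00196), where 9.71% of features were called higher. For Zscan4b the groups did not overlap.

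At RA 60 h the direction in Ctrl cells was the opposite. Zscan4c, Zscan4d and Zscan4f were DE and lower in Ctrl MCM2-2A than in Ctrl, where 7.93% of features were called lower. Zscan4d had 52.4, 38.2 and 36.9 CPM in Ctrl MCM2-2A and 99.5, 85.2 and 73.5 CPM in Ctrl libraries, a log2 fold change of -1.02 (SE 0.12, adjusted p = 1.17e-05). The lowest Ctrl library was above the highest Ctrl MCM2-2A library. Zscan4f had 42.9, 33.0 and 35.4 CPM against 72.0, 57.8 and 47.8 CPM, a log2 fold change of -0.67 (SE 0.13, adjusted p = 0.000514). Zscan4b and Zscan4e had adjusted p under 0.01 with log2 fold changes of -0.44 and -0.55, within the fold threshold, and Zscan4a was at -0.24 (adjusted p = 0.115). Markers of cell types also differed here. Pluripotency markers summed to 589 to 748 CPM in Ctrl MCM2-2A and 257 to 337 CPM in Ctrl libraries, with 5 of 6 called higher, and fibroblast markers to 168 to 183 and 365 to 513 CPM, with 4 of 5 called lower and 1 higher. Of those tested, 4 of 7 endoderm markers were higher, 4 of 6 trophoblast markers higher and 1 lower, and 2 of 4 neural markers lower. Their part in the Zscan4 difference was not tested. At 96 h no member was called, with log2 fold changes of 0.12 to 0.32, none at an unadjusted p under 0.05 in edgeR and 0 called by DESeq2, where 15.7% of features were called in either direction.

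Between dPOLE4 MCM2-2A and dPOLE4 cells, 2, 6 and 5 of 6 members were called higher in MCM2-2A at T0, RA 12 h and RA 24 h. At T0 Zscan4a and Zscan4e were DE (10.3% of features called higher), with log2 fold changes of 1.24 to 1.34 over the 6. At RA 12 h all 6 were DE (9.88%), with 1.21 to 1.58. Zscan4c had 15.1, 8.99 and 18.2 CPM in dPOLE4 MCM2-2A and 7.70, 2.29 and 5.13 CPM in dPOLE4 libraries there, a log2 fold change of 1.55 (SE 0.28, adjusted p = 0.000208). At RA 24 h all but Zscan4d were DE (8.73%), and Zscan4a had 15.6, 13.5 and 20.2 CPM against 8.76, 2.78 and 4.58 CPM, a log2 fold change of 1.62 (SE 0.31, adjusted p = 0.00152). A single member was called at RA 60 h, where 5 of 6 pluripotency and 4 of 7 endoderm markers were called higher, 5 of 6 trophoblast markers higher and 1 lower, 4 of 5 fibroblast markers lower and 1 higher, and 2 of 4 neural markers lower. At T0 3 of 6 endoderm markers were higher, 2 of 6 trophoblast markers higher and 3 lower, 3 of 4 fibroblast markers lower and 1 higher, 2 of 4 neural markers lower and none of 6 pluripotency markers called. At 96 h 4 of 6 endoderm markers were higher, 2 of 6 trophoblast markers higher and 1 lower, 1 of 3 fibroblast markers higher, 1 of 4 neural markers lower and none of 6 pluripotency markers called. The part of these markers was not tested. At RA 60 h Zscan4a was DE and higher in dPOLE4 MCM2-2A, with 30.6, 31.7 and 40.6 CPM against 24.7, 20.8 and 22.6 CPM, a log2 fold change of 0.60 (SE 0.11, adjusted p = 0.000787), where 11.2% of features were called higher. Zscan4d was at -0.24 (SE 0.11, adjusted p = 0.109). At 96 h Zscan4c, Zscan4e and Zscan4f were DE and higher (9.7% of features called higher), and all 6 had log2 fold changes of 0.78 to 0.94.

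Most of these counts changed with the libraries left out or with the tool. DESeq2 called none of the 6 at T0 in either pair and 1 at RA 24 h in either pair, and 1 of 6 at RA 12 h between the dPOLE4 lines. In Ctrl cells the number called at T0 was 0 without Ctrl T0 replicate 3, 1 without Ctrl T0 replicate 2 or Ctrl MCM2-2A T0 replicate 3, 5 without Ctrl MCM2-2A T0 replicate 2 and 6 without Ctrl T0 replicate 1. The counts at T0 thus ran from 0 to 6. In the RA 12 h comparison it was 4 without Ctrl T12 replicate 1. At RA 24 h it was 0 without Ctrl MCM2-2A T24 replicate 1 and 1 without Ctrl T24 replicate 2, Ctrl T24 replicate 3 or Ctrl MCM2-2A T24 replicate 3, and at RA 60 h 1 without Ctrl T60 replicate 1. Each of these libraries moved the count by more than 1.5 times. In dPOLE4 cells at T0 it was 0 without dPOLE4 T0 replicate 2, dPOLE4 T0 replicate 3 or dPOLE4 MCM2-2A T0 replicate 3 and 6 without dPOLE4 T0 replicate 1. At RA 24 h it was 1 without dPOLE4 T24 replicate 3, dPOLE4 MCM2-2A T24 replicate 1 or dPOLE4 MCM2-2A T24 replicate 3 and 3 without dPOLE4 T24 replicate 2, and at RA 60 h 0 without dPOLE4 T60 replicate 2 or dPOLE4 MCM2-2A T60 replicate 3. At 96 h it was 0 without dPOLE4 96h replicate 2, dPOLE4 96h replicate 3 or dPOLE4 MCM2-2A 96h replicate 3, 1 without dPOLE4 MCM2-2A 96h replicate 1 and 6 without dPOLE4 96h replicate 1. Between the dPOLE4 lines at RA 12 h 4 to 6 members were called with any 1 library left out. Genes on chromosome 7, where the cluster lies, had a median log2 fold change in Ctrl cells at T0 of 0.0462 over 1387 genes, and of -0.19 over the 26 tested within 2 Mb of the cluster, of which 0 were called higher and 3 lower. Endoderm markers were higher in Ctrl MCM2-2A at T0, with 41.5 to 55.3 against 15.3 to 32.0 summed CPM and 4 of 6 tested called higher. Of 4 fibroblast markers tested 3 were lower and 1 higher, of 6 trophoblast markers 3 were lower and 2 higher, of 4 neural markers 2 were lower, and of 6 pluripotency markers 1 was higher. The part of these markers was not tested.

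**Figure D4:**
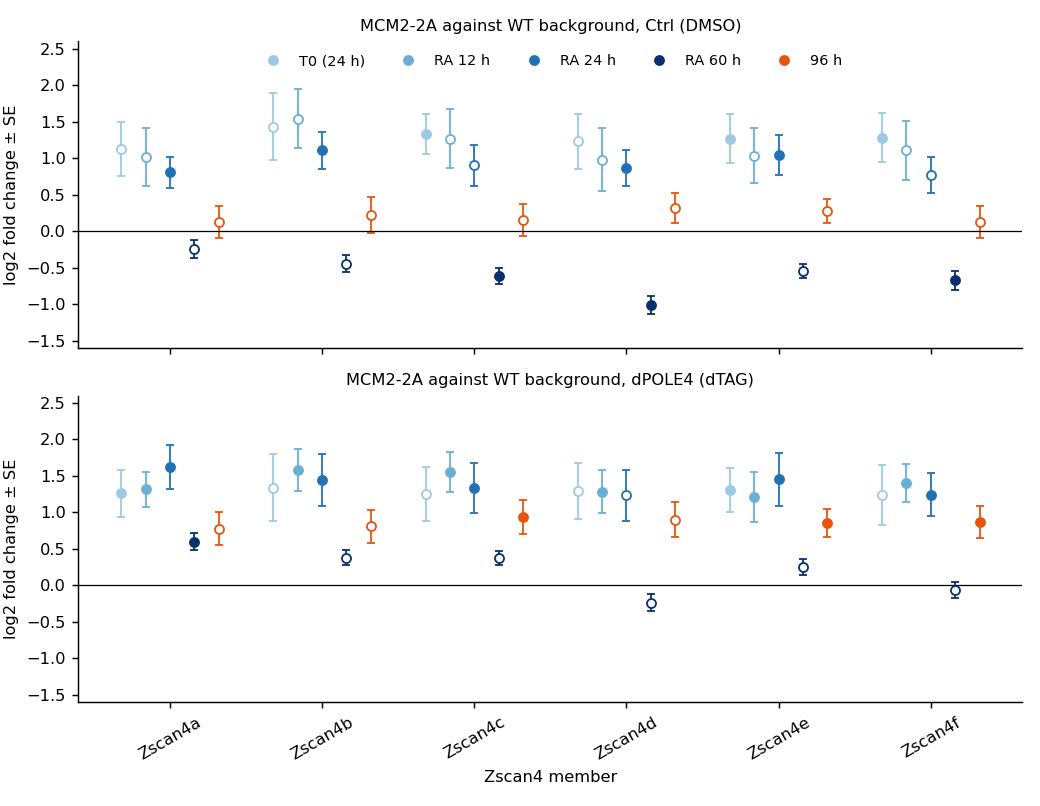
Log2 fold change of MCM2-2A against WT cells (y axis, edgeR, bars are SE) for each Zscan4 member (x axis) at the 5 time points (colours), in Ctrl (top) and dPOLE4 cells (bottom), 3 libraries per group; filled points passed the DE thresholds. T0, RA 12 h and RA 24 h points lie between 0.77 and 1.62, and Ctrl points at RA 60 h lie below 0.

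In the WT background no Zscan4 member passed the thresholds between dPOLE4 and Ctrl cells at any time. At 96 h this count depended on the count filter and on the use of a replicate block. At T0, after 24 h of dTAG, Zscan4c had 9.37, 2.59 and 5.68 CPM in dPOLE4 and 7.65, 2.62 and 4.91 CPM in Ctrl libraries, a log2 fold change of 0.18 (SE 0.40, adjusted p = 0.886). The libraries interleaved, and all 6 members had log2 fold changes of -0.0832 to 0.20 with SE of 0.35 to 0.59. The range was 0.0709 to 0.24 at RA 12 h, and at RA 24 h -0.17 to 0.11. None of the 18 tests at these 3 times had an unadjusted p under 0.05 in edgeR. All 6 had log2 fold changes below 0 at RA 60 h, -0.37 to -0.20. An unadjusted p under 0.05 in edgeR was found there for 4 of 6, and for 2446 of 17116 features. Zscan4c had 66.5, 59.2 and 57.8 CPM in dPOLE4 and 93.4, 74.6 and 70.4 CPM in Ctrl libraries at RA 60 h, a log2 fold change of -0.37 (SE 0.0882, adjusted p = 0.0451). It was the 1 member with groups that did not overlap, and the share of all features with such groups was not computed. At 96 h all 6 had log2 fold changes above 0, 0.52 to 0.71, with 5 of 6 at an unadjusted p under 0.05 in edgeR. Zscan4e had 23.0, 13.9 and 14.2 CPM in dPOLE4 and 11.8, 8.13 and 11.3 CPM in Ctrl libraries at 96 h, a log2 fold change of 0.71 (SE 0.20, adjusted p = 0.198). With no filter on low counts edgeR called 3 of 6 at 96 h, all higher. The number of all features called with that setting, or with the block that follows, is not given here. With the replicate number as a block it called 4 of 6. Over all features the deviations of same-numbered 96 h libraries from their group means had r of 0.120, 0.217 and 0.0673. The last missed the 0.1 asked of every pair. DESeq2 called 0 members at each of the 5 times. Hardly any feature was called by edgeR in this background: 0% at T0, 0% at RA 12 h, 0% at RA 24 h, 0.193% at RA 60 h and 0% at 96 h, in either direction. At 24 h, RA 12 h, RA 24 h and 96 h 2069, 1150, 1451 and 2164 features had an unadjusted p under 0.05 in edgeR, and DESeq2 called 0, 2, 15 and 25.

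In the MCM2-2A background members were DE and higher in dPOLE4 than in Ctrl cells at 96 h and at RA 60 h, the 96 h cells having seen no RA. The summed family was 2.40 times as high in dPOLE4 MCM2-2A (161 ± 28.1 CPM) as in Ctrl MCM2-2A (66.9 ± 15.7 CPM, SD, n = 3). Zscan4a and Zscan4e were DE and higher, where 0.195% of features were called higher. Zscan4e had 34.8, 25.5 and 31.0 CPM in dPOLE4 MCM2-2A and 13.2, 10.8 and 13.5 CPM in Ctrl MCM2-2A libraries, a log2 fold change of 1.29 (SE 0.15, adjusted p = 0.00411). Zscan4a had 36.7, 26.8 and 28.2 CPM against 12.5 ± 3.30 CPM (SD, n = 3), a log2 fold change of 1.34 (SE 0.19, adjusted p = 0.00958). Zscan4c had 47.9, 32.1 and 32.7 CPM against 16.5, 9.76 and 15.5 CPM, a log2 fold change of 1.46 (SE 0.22, adjusted p = 0.0123), and missed the threshold. The groups did not overlap for any of the 6 members, whose log2 fold changes were 1.15 to 1.46. How many of all features had such groups was not computed. DESeq2 called all 6 members, among 115 features called. No marker of pluripotent, endoderm, trophoblast, fibroblast or neural cells was called in this comparison. The number called by edgeR was 0 without Ctrl MCM2-2A 96h replicate 2, Ctrl MCM2-2A 96h replicate 3 or dPOLE4 MCM2-2A 96h replicate 3, 1 without dPOLE4 MCM2-2A 96h replicate 1 or dPOLE4 MCM2-2A 96h replicate 2 and 5 without Ctrl MCM2-2A 96h replicate 1.

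At RA 60 h Zscan4c was DE and higher in dPOLE4 MCM2-2A, where 1.07% of features were called higher. It had 75.0, 70.7 and 91.6 CPM in dPOLE4 MCM2-2A and 61.1, 47.9 and 46.3 CPM in Ctrl MCM2-2A libraries, a log2 fold change of 0.61 (SE 0.12, adjusted p = 0.00901). The log2 fold changes of the 6 were 0.38 to 0.61. The groups did not overlap for 5, a description of their libraries, with the share of all features not computed. An unadjusted p under 0.05 in edgeR was found for 6 of 6, and for 4302 of 18473 features. Here and at the 3 earlier times of the first table same-numbered libraries of both treatments deviated together, and with the replicate number as a block Zscan4b, Zscan4c and Zscan4d were DE, Zscan4c with a log2 fold change of 0.61 (SE 0.11, adjusted p = 0.00211). Without the block, the number called was 0 without Ctrl MCM2-2A T60 replicate 2, Ctrl MCM2-2A T60 replicate 3, dPOLE4 MCM2-2A T60 replicate 1, dPOLE4 MCM2-2A T60 replicate 2 or dPOLE4 MCM2-2A T60 replicate 3 and 3 without Ctrl MCM2-2A T60 replicate 1. Markers of other cells moved here too: of those tested, 2 of 7 endoderm, 3 of 5 fibroblast and 1 of 4 neural markers were lower, and 1 of 7 trophoblast and 1 of 6 pluripotency markers were higher. Fibroblast markers summed to 68.6 to 84.9 CPM in dPOLE4 MCM2-2A and 168 to 183 CPM in Ctrl MCM2-2A libraries, and their part was not tested. At RA 24 h none was called (1.02% of features in either direction), with 0.32 to 0.66 and 1 called by DESeq2. An unadjusted p under 0.05 in edgeR was found for 2 of 6, and for 3888 of 18441 features. With the block Zscan4a was DE at RA 24 h, with a log2 fold change of 0.61 (SE 0.10, adjusted p = 0.00173), and without the block it was called when dPOLE4 MCM2-2A T24 replicate 2 was left out, 1 of 6. At RA 12 h the range was 0.22 to 0.52 with none called (0.404%), 1 of 6 at an unadjusted p under 0.05 in edgeR and 0 called by DESeq2. At T0 it was -0.0907 to 0.27 with none called (0.0715%), 0 of 6 at an unadjusted p under 0.05 in edgeR and 0 called by DESeq2.

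**Figure D5:**
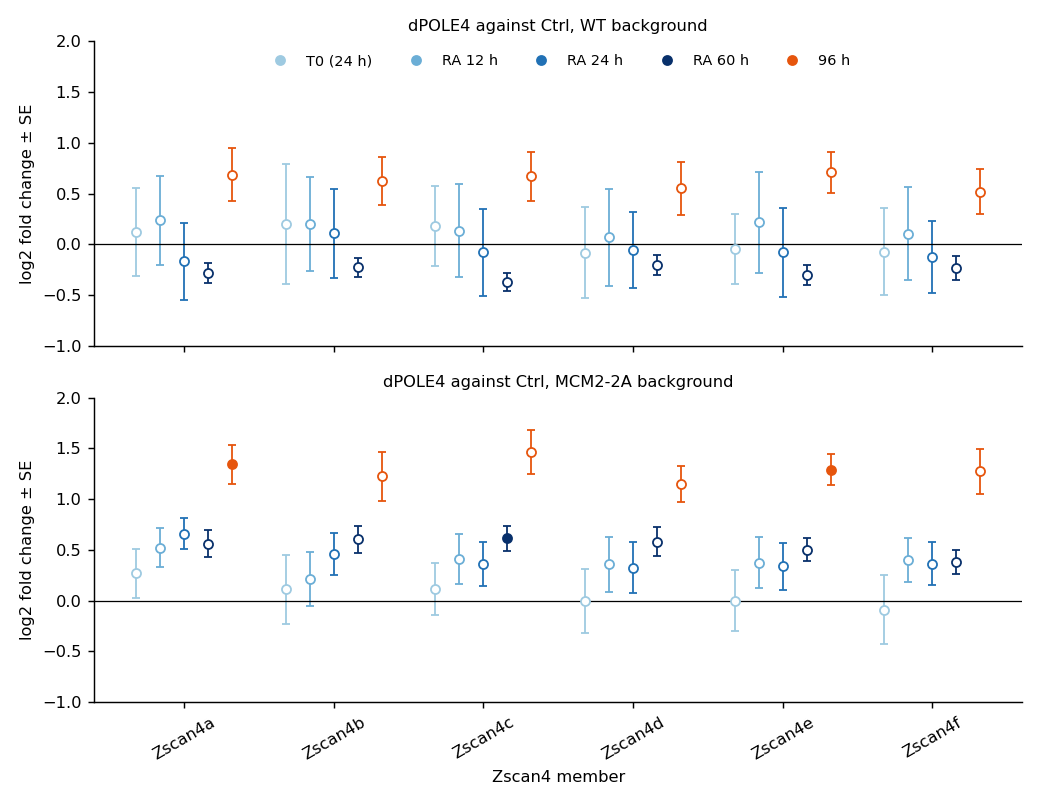
Log2 fold change of dPOLE4 against Ctrl cells (y axis, edgeR, bars are SE) for each Zscan4 member (x axis) at the 5 time points (colours), in the WT (top) and MCM2-2A background (bottom), 3 libraries per group; filled points passed the DE thresholds. No WT point is filled, and in the MCM2-2A background all 6 members at 96 h lie between 1.15 and 1.46.

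Whether the depletion effect differed between the backgrounds was tested as an interaction at each time. No member was called at any of the 5 times with the count filter and without a block. The difference of the log2 fold changes (MCM2-2A minus WT) was -0.0825 to 0.15 at T0, 0.0316 to 0.31 at RA 12 h and 0.34 to 0.82 at RA 24 h, with 0 of 6 at an unadjusted p under 0.05 in edgeR and 0 called by DESeq2 at each. It was 0.62 to 1.00 at RA 60 h, where the smallest adjusted p in edgeR was 0.0109 for Zscan4c. An unadjusted p under 0.05 in edgeR was found there for 6 of 6, and for 1922 of 18982 features. DESeq2 called 4 members, among 81 features called. Without Ctrl MCM2-2A T60 replicate 1 or dPOLE4 MCM2-2A T60 replicate 3, edgeR called 1. With the replicate number as a block, which also ties libraries of both backgrounds that did not pair, Zscan4c was called at RA 60 h, at 0.99 (SE 0.14, adjusted p = 0.00340). With no filter on low counts 6 members were called at RA 60 h and 1 at RA 24 h. The number of all features called without the filter or with the block is not given here. At 96 h it was 0.59 to 0.80 with SE of 0.27 to 0.37, 3 of 6 at an unadjusted p under 0.05 in edgeR and 0 called by DESeq2, so the effects at 96 h in the backgrounds were not shown to differ. Of all features, 0.00526%, 0.0159%, 0.0351%, 0.1% and 0% were called in either direction at the 5 times. At 96 h 686 features had an unadjusted p under 0.05 in edgeR, and DESeq2 called 1.

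A small set of genes followed the summed family over the 48 libraries of the first table. By Pearson's r of log2 CPM, among 21330 features and leaving out the family and its 3 pseudogene-named copies, the 10 closest were Gm8994, Gm4340, Pramef25, Cacna1s, BC080695, Gm20767, Usp17lc, Gm21761, Gm18983 and Gm5580. Their r ran from 0.914 to 0.944, and it is a description, since the points share the time course and the libraries. Gm8994, on chromosome 6, had 4.49 CPM on average in Ctrl at T0 and 110.4 CPM at RA 60 h. Gm4340, on chromosome 10, went from 2.37 to 88.3 CPM. Usp17lc, of the Usp17 deubiquitinase family, went from 1.15 to 28.9 CPM, and Cacna1s, a calcium channel subunit known from muscle, from 1.99 to 48.4 CPM. For deviations from the group means, which take out the time course, the 5 closest were Gm8994, AC127331.6, Usp17lc, Gm4340 and Gm21761, with r of 0.767 to 0.799, and 4 of these 5 were also among the 10. Over the 12 libraries of the 96 h table the 10 had r of 0.427 to 0.849 with the family. For deviations from the group means of that table the 5 had r of -0.277 (Gm4340) to 0.366 (Gm21761).

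The copies Zscan4-ps1, Zscan4-ps2 and Zscan4-ps3, which share reads with the members, were also higher at RA 60 h. Despite their names, all 3 are annotated as protein coding. In Ctrl they summed to 8.44 ± 5.11 CPM at T0 and 103 ± 14.9 CPM at RA 60 h (SD, n = 3). All 3 were DE there, with log2 fold changes of 3.09, 3.85 and 3.35. At 96 h in the MCM2-2A background none was called (median 1.21).

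Other genes of the 2-cell-like program, taken as a list of 42 genes and repeats, were counted beside the family. At RA 60 h in Ctrl 32 of 36 tested were DE and higher and 3 lower, with a median log2 fold change of 3.50 against -0.0134 over all features, of which 26.9% were called higher. Duxf3, the DUX locus that activates Zscan4, went from 0.181 ± 0.171 to 3.71 ± 0.937 CPM (SD, n = 3), a log2 fold change of 4.28 (SE 0.45). Its T0 level was near the floor of the counts, which limits this value and the interaction that uses the same level. Gm4340, Usp17lc and Tmem92 had log2 fold changes of 5.22 (SE 0.23), 4.63 (SE 0.24) and 4.84 (SE 0.25). In Ctrl MCM2-2A cells 31 of 36 were higher and 3 lower, with a median of 1.62, where 26.3% of all features were called higher. In the interaction of time and background 15 of 36 were lower and 1 higher, where 4.4% of all features were called lower, with Duxf3 at -2.76 (SE 0.64). Retroviral MERVL-int was at 963 ± 135 CPM in Ctrl at T0 and 4886 ± 462 CPM at RA 60 h.

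Between Ctrl MCM2-2A and Ctrl cells at T0, 16 of 29 tested on this list were DE and higher and 1 lower (median 1.26, against -0.0183 over all features, of which 9.83% were called higher), with Usp17lc at 2.12 (SE 0.44) and Pramef25 at 2.13 (SE 0.42). At 96 h in the MCM2-2A background 9 of 35 were DE and higher and none lower (median 1.14, against 0.00103 over all features, of which 0.195% were called higher), with Usp17le at 1.54 (SE 0.13) and Gm4340 at 1.39 (SE 0.15). MERVL-int was called there, at 1.00 (SE 0.11), with 1861 ± 169 CPM against 931 ± 119 CPM. In that background at RA 60 h, 7 of 36 were higher and none lower (median 0.64, against 0.00393 over all features, of which 1.07% were called higher), with Duxf3 at 1.00 (SE 0.20). In the WT background none of 31 was called at 96 h, with a median of 0.64 against 0.00121 over all features.

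Regulators of the program moved in both directions at RA 60 h. Of 5 activators, Duxf3 and Nelfa, which encodes a pausing factor of RNA polymerase II, were DE and higher at RA 60 h in Ctrl, Nelfa at 0.90 (SE 0.10). Dppa2 and Dppa4, which act upstream of Dux, were lower, at -1.68 (SE 0.0853) and -1.55 (SE 0.0810). Of 20 repressors 10 were lower and 1 higher (median -0.54, where 4288 of 18082 features were called lower and 4856 higher). Those lower included Rif1, a replication timing factor, at -2.18 (SE 0.0925), Trim28, the corepressor of retroviral elements, at -1.62 (SE 0.0770), and Setdb1, an H3K9 methyltransferase, at -0.91 (SE 0.0605). In the MCM2-2A background at 96 h none of 5 activators and 20 repressors was called, with medians of 0.25 and -0.11. Between Ctrl MCM2-2A and Ctrl at T0, Tbx3 was the activator called, at 0.63 (SE 0.0511), and no repressor was.

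Genes of telomere maintenance and meiotic recombination, processes in which Zscan4 takes part, were lower where they were called at RA 60 h. In Ctrl 7 of 15 tested were DE and lower and none higher (median -0.51), where 4288 of 18082 features were called lower and the median of all was -0.0134. They included Dkc1, which encodes the telomerase component dyskerin, at -1.50 (SE 0.0618), Terf1, which encodes a shelterin subunit, at -1.48 (SE 0.0785), and Tert, the telomerase reverse transcriptase, at -0.95 (SE 0.10). None was called at 96 h in the MCM2-2A background (median -0.0376). Of other SCAN zinc finger genes, 11 were tested. In Ctrl at RA 60 h 2 of 11 were higher and 3 lower (median -0.14, where 4288 of 18082 features were called lower and 26.9% higher), with Zscan10, a pluripotency factor, at -3.26 (SE 0.10) and Zscan2 at 2.92 (SE 0.19). None of 11 was called at 96 h in the MCM2-2A background.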

How the data were processed

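RNA of 60 libraries was rRNA-depleted and sequenced strand-specifically with paired reads of 100 bases. The authors trimmed reads with cutadapt 4.2, mapped them to GRCm38 (mm10) with STAR, keeping reads with several positions, and counted genes and repeat subfamilies with TEcount, which divides such reads among their positions. The deposited values are raw whole-number counts per feature, 1 table for the time course and 1 for the 96 h experiment, and no column was left unassigned (0). Nearly identical copies such as Zscan4 genes therefore share reads.

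Groups came from the labels, with 3 libraries each. One protocol text gives other RA times than the sample titles, and the titles (12, 24 and 60 h) were followed. Gene IDs were matched to GENCODE M21 for names and exonic length (55141 of 55487). Counts were tested with edgeR 4.0.16 (R 4.3.3): filterByExpr with a minimum count of 10, TMM scaling, and the quasi-likelihood F test with Benjamini-Hochberg adjustment over all features tested, each comparison fitted on its own groups. SE is the log2 fold change divided by the square root of F. The thresholds were an adjusted p of 0.01 and a log2 fold change of 0.58. CPM used a table's TMM factors. All 6 members are named, and other genes are named by likeness to the summed family (the 10 with the highest r over libraries and the 5 over deviations) or as called list genes in a comparison where a member was called, from at most 10 per list, largest fold first, of which examples are given. The members and lists were chosen with earlier results of these data known.

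The alternatives were DESeq2 1.42.0, its size factors in edgeR, TMM over genes only, no count filter, a stricter one, no fold limit, all groups in 1 fit, each library left out, and the replicate number as a block. For 8 of 32 pairs of groups every same-numbered pair's deviations from the group means correlated above 0.1: dPOLE4 and Ctrl at T0, RA 12 h, RA 24 h and RA 60 h in both backgrounds. That pairing comes from the data, as the labels do not say what a number marks. Scripts were tested on simulated data. Library totals were 7126100 to 46609151 counts.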

Additional observations from a re-analysis of the deposited data

Results flagged for a closer look

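The rise of Zscan4 RNA between T0 and RA 60 h in Ctrl cells differed between the WT and MCM2-2A backgrounds, by the test of the difference itself (the interaction of time and background, edgeR). The log2 fold change was smaller in MCM2-2A by a difference of -1.94 for Zscan4b, -1.99 for Zscan4c, -2.31 for Zscan4d, -1.87 for Zscan4e and -2.01 for Zscan4f. DESeq2 called Zscan4c, Zscan4d and Zscan4f of these 5. For each of them both the T0 level and the RA 60 h level of the backgrounds enter the value, and each background is 1 line.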

How the results depend on the processing

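The number of the 6 members called in each of the 39 comparisons was computed again under other settings. None of the counts reversed. Of the 234 single member tests, none that was called in either fit changed direction. A change of sign in a test called in neither fit was not counted. The 6 calls at RA 60 h against T0 held in all 4 kinds of cells under every setting tried, and the counts of 0 at RA 12 h against T0 and for dPOLE4 against Ctrl at T0, RA 12 h, RA 24 h and RA 60 h held as well. The counts below differ from those above by more than 1.5 times or pass between 0 and more, and the cause was not tested. These counts are given without the number of all features called under the same setting. With DESeq2 the count was 0 for Ctrl MCM2-2A against Ctrl at T0, dPOLE4 MCM2-2A against dPOLE4 at T0 and RA 24 h against T0 in Ctrl, 1 for dPOLE4 MCM2-2A against Ctrl MCM2-2A at RA 24 h, Ctrl MCM2-2A against Ctrl at RA 12 h, Ctrl MCM2-2A against Ctrl at RA 24 h, dPOLE4 MCM2-2A against dPOLE4 at RA 12 h, dPOLE4 MCM2-2A against dPOLE4 at RA 24 h, RA 24 h against T0 in Ctrl MCM2-2A and RA 24 h against T0 in dPOLE4 MCM2-2A, 2 for dPOLE4 MCM2-2A against Ctrl MCM2-2A at RA 60 h, 3 for the interaction of RA 60 h and background in Ctrl, 4 for the interaction of depletion and background at RA 60 h and 6 for dPOLE4 MCM2-2A against Ctrl MCM2-2A at 96 h. With no filter on low counts the count was 1 for dPOLE4 MCM2-2A against Ctrl MCM2-2A at RA 24 h and the interaction of depletion and background at RA 24 h, 2 for dPOLE4 MCM2-2A against Ctrl MCM2-2A at RA 60 h, 3 for dPOLE4 against Ctrl at 96 h, 4 for RA 24 h against T0 in Ctrl MCM2-2A, 5 for RA 24 h against T0 in dPOLE4 and 6 for dPOLE4 MCM2-2A against Ctrl MCM2-2A at 96 h, Ctrl MCM2-2A against Ctrl at T0, Ctrl MCM2-2A against Ctrl at RA 12 h, dPOLE4 MCM2-2A against dPOLE4 at T0, dPOLE4 MCM2-2A against dPOLE4 at 96 h, RA 24 h against T0 in Ctrl, RA 24 h against T0 in dPOLE4 MCM2-2A, the interaction of depletion and background at RA 60 h and the interaction of RA 60 h and background in dPOLE4. With all groups of a table in the fit the count was 0 for Ctrl MCM2-2A against Ctrl at T0, Ctrl MCM2-2A against Ctrl at RA 24 h and RA 24 h against T0 in Ctrl, 1 for dPOLE4 MCM2-2A against Ctrl MCM2-2A at 96 h, Ctrl MCM2-2A against Ctrl at RA 12 h, dPOLE4 MCM2-2A against dPOLE4 at T0 and RA 24 h against T0 in dPOLE4 and 3 for dPOLE4 MCM2-2A against Ctrl MCM2-2A at RA 60 h. With DESeq2 size factors in edgeR the count was 1 for the interaction of depletion and background at RA 60 h. With TMM factors from genes only the count was 1 for dPOLE4 MCM2-2A against Ctrl MCM2-2A at 96 h. With at least 10 counts required in every library the count was 1 for dPOLE4 MCM2-2A against Ctrl MCM2-2A at 96 h. With the adjusted p alone and no fold limit the count was 3 for dPOLE4 MCM2-2A against dPOLE4 at RA 60 h and 5 for Ctrl MCM2-2A against Ctrl at RA 60 h.

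With the replicate number as a block the count was 1 for dPOLE4 MCM2-2A against Ctrl MCM2-2A at RA 24 h and the interaction of depletion and background at RA 60 h, 2 for Ctrl MCM2-2A against Ctrl at RA 12 h and the interaction of RA 60 h and background in dPOLE4, 3 for dPOLE4 MCM2-2A against Ctrl MCM2-2A at RA 60 h, 4 for dPOLE4 against Ctrl at 96 h, 5 for RA 24 h against T0 in dPOLE4 and RA 24 h against T0 in Ctrl MCM2-2A and 6 for dPOLE4 MCM2-2A against Ctrl MCM2-2A at 96 h, Ctrl MCM2-2A against Ctrl at T0, dPOLE4 MCM2-2A against dPOLE4 at T0, dPOLE4 MCM2-2A against dPOLE4 at 96 h, RA 24 h against T0 in Ctrl and RA 24 h against T0 in dPOLE4 MCM2-2A. Of these comparisons, the numbers paired the libraries for dPOLE4 MCM2-2A against Ctrl MCM2-2A at RA 24 h and RA 60 h alone. In the others the numbers did not pair the libraries over all genes, since not every pair's correlation of deviations was over 0.1. At 96 h the mean r was 0.135 for dPOLE4 against Ctrl and 0.156 for dPOLE4 MCM2-2A against Ctrl MCM2-2A. For dPOLE4 against Ctrl at RA 60 h, which counted as paired, it was 0.139. For differences between backgrounds the block also tied libraries of both backgrounds, which did not pair. Within the Zscan4 family, however, replicate 2 was the lowest library in all 12 groups of T0, RA 12 h and RA 24 h, and with the block the RA 24 h counts against T0 went from 1, 0, 2 and 2 to 6, 5, 5 and 6 in Ctrl, dPOLE4, Ctrl MCM2-2A and dPOLE4 MCM2-2A cells. For dPOLE4 against Ctrl at 96 h the block called Zscan4a, Zscan4b, Zscan4c and Zscan4e, with adjusted p of 5.99e-05 to 0.00400 and log2 fold changes of 0.64 to 0.70, and the summed family was 1.76, 1.67 and 1.19 times as high in dPOLE4 in the same-numbered libraries. In comparisons not named here for the block it changed no count by as much.

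Leaving out 1 library at a time, the count ran from 0 to 1 for dPOLE4 MCM2-2A against Ctrl MCM2-2A at RA 24 h, 0 to 3 for dPOLE4 MCM2-2A against Ctrl MCM2-2A at RA 60 h, 0 to 5 for dPOLE4 MCM2-2A against Ctrl MCM2-2A at 96 h, 0 to 6 for Ctrl MCM2-2A against Ctrl at T0, 0 to 4 for Ctrl MCM2-2A against Ctrl at RA 12 h, 0 to 6 for Ctrl MCM2-2A against Ctrl at RA 24 h, 1 to 4 for Ctrl MCM2-2A against Ctrl at RA 60 h, 0 to 6 for dPOLE4 MCM2-2A against dPOLE4 at T0, 1 to 6 for dPOLE4 MCM2-2A against dPOLE4 at RA 24 h, 0 to 1 for dPOLE4 MCM2-2A against dPOLE4 at RA 60 h, 0 to 6 for dPOLE4 MCM2-2A against dPOLE4 at 96 h, 0 to 6 for RA 24 h against T0 in Ctrl, 0 to 3 for RA 24 h against T0 in dPOLE4, 0 to 3 for RA 24 h against T0 in Ctrl MCM2-2A, 0 to 6 for RA 24 h against T0 in dPOLE4 MCM2-2A, 0 to 1 for the interaction of depletion and background at RA 60 h and 0 to 4 for the interaction of RA 60 h and background in dPOLE4. In the other 22 comparisons no left-out library moved it as far. The fit over all groups was made for 32 comparisons and not for the 7 differences of differences. A count of 0 in dPOLE4 against Ctrl is bounded by the spread within groups. At T0 the SE of a member's log2 fold change was 0.35 to 0.59, or 0.13 to 0.24 with the replicate number as a block. A call needed a change well beyond its SE, so changes of those sizes, and larger ones, could have gone uncalled. Member counts as low as 6 in a library, and reads shared among the copies, limit statements on single members more than on their sum.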
